A study of Homo sapiens with 4 samples.

Results

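The proteasome genes were taken as the protein-coding genes of chromosomes 1 to 22 and X in the RefSeq gene table of hg38 whose symbols begin with PSMA, PSMB, PSMC, PSMD, PSME, PSMF or PSMG followed by a digit, and 50 of the 19821 genes used met this rule. ETS1 and RUNX1, which are transcription factors of the ETS and RUNX families that act in T-cell development, were mapped in 6T-CEM, a line of T-cell acute lymphoblastic leukaemia (T-ALL) cells. The 4 libraries were made by CUT&Tag, in which an antibody guides a transposase to cut and tag the DNA around the bound protein: libraries 1 and 2 with an ETS1 antibody from Santa Cruz (sc-55581) and libraries 1 and 2 with a RUNX1 antibody from Abcam (ab272456). Every library came from the same line, with no treatment named, so the comparison is between antibodies. Nothing in the labels says that libraries of 1 antibody came from separate cultures, so the spread between them may be technical.

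The proteasome degrades proteins that carry ubiquitin chains. Its barrel-shaped core particle holds rings of alpha subunits (PSMA genes) around rings of beta subunits (PSMB genes), and some of the beta subunits carry the proteolytic sites. The regulatory particle caps the core, and its ATPases (PSMC genes) unfold substrates that the non-ATPase subunits (most PSMD genes) recognise and strip of ubiquitin. Cells of the immune system can swap in the immunoproteasome subunits PSMB8, PSMB9 and PSMB10 and the activator subunits PSME1 and PSME2, which alters the peptides offered to MHC class I molecules.

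A region was counted as reproducible where overlapping peaks of both libraries of a factor merged, and as being at a gene end where it came within 1 kb of either outermost end of the gene. The lists used held 6070 and 5611 ETS1 peaks and 25356 and 24997 RUNX1 peaks, which gave 5055 and 22802 reproducible regions. The numbers of reads are not given in the peak lists, so the depth of each library is unknown. Among 8 T-cell genes fixed as markers, 7 had a RUNX1 region at an end and CD5 had none, beside 47.2% of all protein-coding genes. CD79A and MPO were the 2 of 8 genes of other blood lineages with one. ETS1 lay at 4 of the 8 T-cell genes and at 0 of the 8 others, beside 19% of all genes. Peaks do not measure expression, so these counts describe the libraries only.

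RUNX1 lay at the ends of 30 of the 50 proteasome genes (60%), where 47.2% of all protein-coding genes had a RUNX1 region at an end. ETS1 lay at 13 of 50 (26%), beside 19% of all genes. Each of those 13 genes also had an overlapping RUNX1 region, so 13 genes had both (background 18.7%), 17 had RUNX1 without ETS1 (background 28.5%), none had ETS1 without RUNX1 (background 0.333%) and 20 had neither (background 52.5%). Single libraries gave 15 and 14 members for ETS1 (background 21.5% and 20.4%) and 31 and 32 for RUNX1 (background 49.1% and 48.2%). The ranges of the factors did not overlap, at the members as over all genes. The mean difference was 17 members, and an exact two-sided permutation test of the 4 libraries gave p = 0.333, the smallest that 2 against 2 libraries can give.

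The number of peaks per list moved with this result. Each list was held to its 5611 peaks with the highest −log10 q, the caller's measure of significance, and not by fold. ETS1 then kept 13 members (background 18.5%) and RUNX1 had 4, namely PSMB8, PSMD8, PSME2 and PSMG1 (background 13.8%), each with an ETS1 region as well (background 9.65% for both). The larger count for RUNX1 therefore held for the lists as deposited and not at equal numbers of peaks. The number 5611 is the size of the shorter ETS1 list, so the cut took few ETS1 peaks and most RUNX1 peaks. The unchanged ETS1 count therefore says little about ETS1.

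The gene classes differed in their counts, which stand beside 47.2% of all protein-coding genes for RUNX1 and 19% for ETS1. All 5 immunoproteasome genes had a RUNX1 region and 3 of them (60%) an ETS1 region. Of the 17 regulatory-particle genes, 9 (52.9%) had RUNX1, near the share of all genes, and 6 (35.3%) had ETS1. Of the 14 core-particle genes, 10 (71.4%) had RUNX1 and 2 (14.3%) had ETS1, so that ETS1 accompanied RUNX1 at 20% of the core genes with RUNX1, at 66.7% of the regulatory genes and at 60% of the immunoproteasome genes, beside 39.6% of all genes with RUNX1. These differences between classes were not tested, and members that lie close together may not be independent: PSMB8 and PSMB9 flank TAP1, and PSME1 lies near PSME2.

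**Figure D1:**
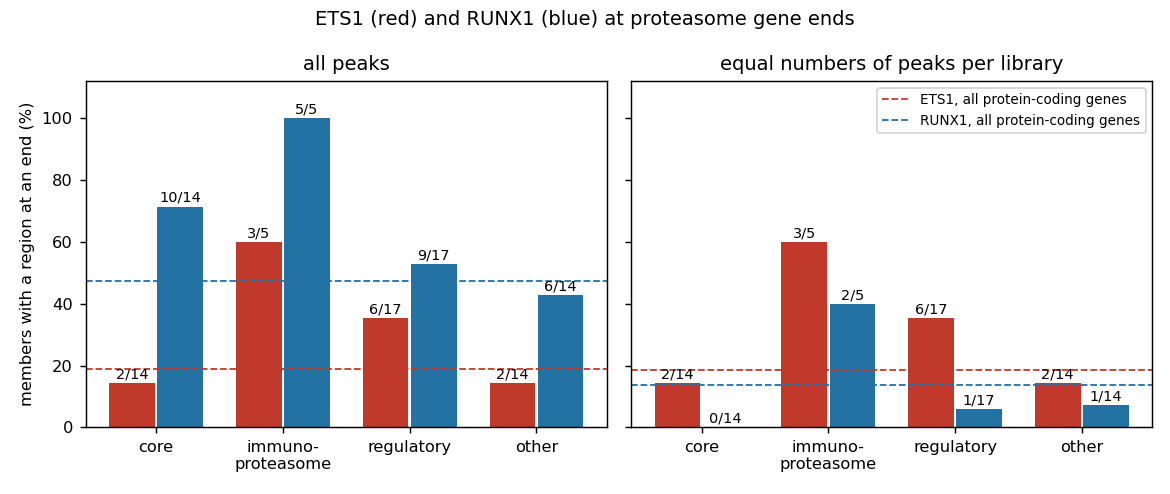
Share of the genes in each class (vertical axis, percent) with a reproducible ETS1 (red) or RUNX1 (blue) region at a gene end, with all peaks on the left and with 5611 peaks per library on the right; numbers over the bars are genes with a region out of genes in the class, and dashed lines are all protein-coding genes. RUNX1 lay at 10 of 14 core genes with all peaks and at 0 of 14 with equal peak numbers. The ETS1 counts were the same in both panels, but the ETS1 lists, of 6070 and 5611 peaks, were cut little or not at all.

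The immunoproteasome genes held the RUNX1 region with the highest fold of all members. Strengths are given as the authors' fold of a peak over IgG at its summit, for libraries 1 and 2, and a rank is the share of regions at gene ends with a lower mean fold for the same factor. PSMB8, whose product replaces PSMB5 in the immunoproteasome, had a RUNX1 region over its 3′ end at chr6:32840492-32841438 (hg38) with folds of 52.39 and 49.99 (51.2 ± 1.70, mean ± SD, n = 2), above 98.7% of RUNX1 regions at gene ends. A second RUNX1 region, at chr6:32843532-32846013, covered the PSMB8 start with folds of 21.6 and 30.9 (26.2 ± 6.61, n = 2), and the summits of libraries 1 and 2 lay at -196 and 34 bp from the start (negative is upstream). The pileup at the summit, the number of fragments that the fold and p-value of a peak imply, was in fact lower at the 3′ end (195 and 179) than at the start (288 and 288). The IgG expectation was 2.74 and 2.60 fragments at the 3′ end against 12.4 and 8.35 at the start, so the order of these regions depended on the scale. The order across members depended on it too. The RUNX1 pileups of PSME2 (540 and 517) and of the chaperone gene PSMG1 (518 and 460) were above those of both PSMB8 regions.

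ETS1 was found at the PSMB8 start with folds of 11.6 and 10.9 (11.2 ± 0.46, n = 2) and was not found at the 3′ end in the peaks of either library. PSMB9, which replaces PSMB6, had ETS1 folds of 7.01 and 7.96 (7.49 ± 0.67, n = 2) and RUNX1 folds of 14.3 and 12.9 (13.6 ± 1.0, n = 2), with the mean summits of the factors 163 and 153 bp upstream of its start. PSMB9 is paired head to head with TAP1, a subunit of the peptide transporter that feeds MHC class I loading, whose start lay 325 bp from the ETS1 summit, so that region can be assigned to either gene. PSMB10, which replaces PSMB7, had RUNX1 folds of 6.53 and 7.80 in a region that came within 1 kb of both ends of this short gene, with summits 186 and 1258 bp downstream of the start, and had no ETS1 region within 10 kb.

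**Figure D2:**
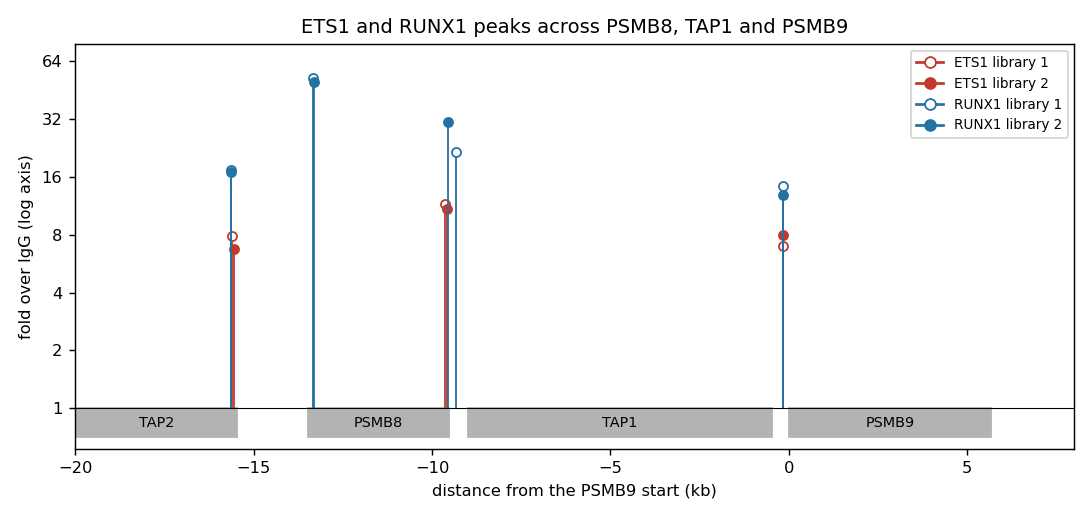
Reproducible ETS1 (red) and RUNX1 (blue) regions across TAP2, PSMB8, TAP1 and PSMB9 (grey boxes), with the distance from the PSMB9 start in kb on the horizontal axis and the fold over IgG of each library's summit on a log axis. RUNX1 without ETS1 stands at the PSMB8 3′ end with folds of 52.39 and 49.99, and both factors stand at the starts of PSMB8 and PSMB9.

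The constitutive subunits that these replace carried RUNX1 without ETS1, as PSMB10 did, or neither factor. RUNX1 folds were 5.82 and 5.76 at PSMB5 and 6.695 and 7.503 at PSMB6, below those of PSMB8 and PSMB9 but not of PSMB10, whose 6.53 and 7.80 overlapped the PSMB6 values. PSMB7 had no region at an end, and its nearest RUNX1 summit was 5015 bp away. The activator subunits PSME1 and PSME2 also differed from each other. PSME2 had ETS1 folds of 8.79 and 9.73 (9.26 ± 0.67, n = 2) and RUNX1 folds of 24.95 and 22.90 (23.9 ± 1.45, n = 2), above 82.3% and 91.3% of gene-end regions, but the mean summits lay 493 and 462 bp upstream of PSME2 and only 228 and 197 bp from RNF31, a subunit of a ubiquitin ligase complex. PSME1 had RUNX1 folds of 3.85 and 4.71 (4.28 ± 0.61, n = 2), the third lowest mean among members with a region at an end, and its nearest ETS1 summit was 2720 bp away.

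With all peaks, the core-particle genes had RUNX1 at 71.4% (background 47.2%) and ETS1 at 14.3%, near the 19% of all genes, and with equal peak numbers they had ETS1 at 2 genes and RUNX1 at 0. The alpha subunits had RUNX1 at 6 of 7 genes and ETS1 at 1 of 7, and the beta subunits had RUNX1 at 4 of 7 and ETS1 at 1 of 7. PSMA7, an alpha subunit, had the ETS1 region with the highest folds of all members, 16.2 and 15.4 (15.8 ± 0.60, n = 2) at chr20:62142901-62144308, above 96.2% of ETS1 regions at gene ends. Its RUNX1 folds were 14.0 and 12.7 (13.4 ± 0.94, n = 2), above 75.3% of RUNX1 regions. The ETS1 pileups at PSMA7 (148 and 138) were below those at PSME2 (162 and 165). They overlapped the RUNX1 pileups of PSMA7 (145 and 125), whereas at the other 12 members with both factors every ETS1 pileup was below every RUNX1 pileup. The ETS1 pileup reached the lower RUNX1 pileup at 7.38% of the 3048 overlapping pairs of regions at gene ends. The mean ETS1 summit was 191 bp from the end of PSMA7 and 184 bp from that of SS18L1, a component of chromatin remodelling complexes, so the region belongs to both ends. PSMB3, a beta subunit without a proteolytic site, had ETS1 folds of 7.90 and 6.97 (7.43 ± 0.66, n = 2) and RUNX1 folds of 11.02 and 10.04 (10.5 ± 0.69, n = 2).

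The other core genes with RUNX1 were PSMA1, PSMA2, PSMA3, PSMA4, PSMA5, PSMB2, PSMB5 and PSMB6, with mean folds from 3.88 to 9.91. The highest of these was at PSMA2, where the mean summit lay 204 bp from PSMA2 and 2 bp from MRPL32. At PSMA1 the mean summit of the end region lay 296 bp from PSMA1 and 154 bp from PDE3B. A separate RUNX1 region, with folds of 6.53 and 6.50, lay at the annotated start of PSMA1, which is 123276 bp inside the gene. Among members with a RUNX1 region at an end, PSMB2, a beta subunit without a proteolytic site, had the lowest mean fold, with 3.11 and 4.64 (3.88 ± 1.08, n = 2). PSMA4 had the fourth lowest, with 5.57 and 5.06 (5.31 ± 0.36, n = 2). PSMA6 had neither factor at its outermost ends, but both at an annotated start 13824 bp inside the gene, with ETS1 folds of 6.76 and 5.98 and RUNX1 folds of 7.38 and 7.17. With annotated starts counted beside ends, an addition made after the data had been seen, all 7 alpha genes had RUNX1. PSMB1, PSMB4 and PSMB7 had neither factor at an end in both libraries. PSMB1 had a RUNX1 peak in library 1 alone (fold 4.02), and PSMA3 an ETS1 peak in library 1 alone (3.71).

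In the regulatory particle, ETS1 lay at 2 of the 6 ATPase genes and 4 of the 11 non-ATPase genes (background 19%). RUNX1 lay at 3 and 6 of them (background 47.2%). PSMC5, an ATPase, had ETS1 folds of 6.77 and 6.21 (6.49 ± 0.40, n = 2) and RUNX1 folds of 11.50 and 11.49, and all 4 libraries placed their summit on the same base, 73 bp upstream of the start. PSMC4, also an ATPase, had weaker ETS1 folds of 4.26 and 4.04 (4.15 ± 0.15, n = 2), RUNX1 folds of 9.29 and 8.79 (9.04 ± 0.35, n = 2) and summits that differed by 2 bp between the factors. PSMC3 had RUNX1 alone at 4.17 and 3.71 (3.94 ± 0.32, n = 2), the second lowest mean of the members with a region at an end. PSMC1, PSMC2 and PSMC6 had neither factor, apart from an ETS1 peak at PSMC6 in library 2 alone (3.03).

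Of the non-ATPase subunits, PSMD8 had the highest folds: ETS1 folds of 7.18 and 6.92 (7.05 ± 0.18, n = 2) and RUNX1 folds of 21.7 and 22.2 (21.9 ± 0.37, n = 2), above 89.8% of RUNX1 regions at gene ends. For ETS1 this order did not hold by pileup, with 44 and 43 at PSMD8 beside 59 and 56 at PSMD13. For RUNX1 the pileups were 155 and 152 at PSMD8 and 103 and 108 at PSMD13. PSMD13 had ETS1 at 6.53 and 6.71 (6.62 ± 0.13, n = 2) and RUNX1 at 12.4 and 13.6 (13.0 ± 0.85, n = 2), with the ETS1 summit 159 bp from PSMD13 and 114 bp from its neighbour SIRT3, a mitochondrial deacetylase. PSMD11 had ETS1 at 4.21 and 4.27 (4.24 ± 0.04, n = 2) and RUNX1 at 6.96 and 7.39 (7.18 ± 0.30, n = 2). PSMD3 had the lowest mean ETS1 fold of the members, with 3.47 and 4.12 (3.79 ± 0.46, n = 2), above 11% of ETS1 regions, and RUNX1 at 9.083 and 7.497 (8.29 ± 1.12, n = 2). These genes encode subunits of the lid, the part of the cap that holds the deubiquitinase.

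PSMD2, a scaffold subunit, had RUNX1 without ETS1 at 6.69 and 6.21, as did the lid subunit PSMD12 at 5.68 and 5.60 (5.64 ± 0.06, n = 2), the fifth lowest mean of the members with a region at an end. Neither factor was found in both libraries at PSMD1, a scaffold subunit, PSMD4, a ubiquitin receptor, PSMD6 and PSMD7, both of the lid, or PSMD14, the deubiquitinase. PSMD14 had a RUNX1 peak in library 2 alone (3.05). The deubiquitinase gene was therefore among the lid genes without a reproducible region at an end, with PSMD6, PSMD7 and SEM1, another lid gene. RUNX1 lay at the lid genes PSMD3, PSMD8, PSMD11, PSMD12 and PSMD13, where 47.2% of all protein-coding genes had it.

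The remaining 14 members assist, inhibit or replace parts of the particle or share only the symbol. PSMG1, a chaperone of core assembly, had the second highest RUNX1 value of all members, 29.6 and 27.6 (28.6 ± 1.43, n = 2), above 94.1% of RUNX1 regions, and ETS1 at 7.999 and 8.202 (8.10 ± 0.14, n = 2). PSMD9, a chaperone of the regulatory particle, had ETS1 at 5.01 and 6.41 (5.71 ± 0.99, n = 2) and RUNX1 at 11.65 and 10.30 (10.97 ± 0.95, n = 2). RUNX1 without ETS1 lay at the chaperones PSMD5 (6.84 and 5.69) and PSMG3 (6.38 and 5.58). It also lay at PSMC3IP (8.397 and 9.842), a recombination factor, and PSME3IP1 (7.95 and 7.61), a partner of PSME3, neither of which is a proteasome subunit. Without these 2 genes the counts were 13 and 28 of 48.

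The alternative activators PSME3 and PSME4, the inhibitor PSMF1, the chaperones PSMD10, PSMG2 and PSMG4, the testis alpha subunit PSMA8 and the thymus beta subunit PSMB11 had no reproducible region at an end. RUNX1 was found at annotated starts inside PSMG2 (4.92 and 3.98), PSMG4 (4.06 and 3.34) and PSMF1 (2.95 and 3.34), which with PSMA6 raised the RUNX1 count to 34 (background 49.4%) and the ETS1 count, and with it the count of genes with both, to 14 (background 20.2% for ETS1 and 19.9% for both). PSMA8 had a RUNX1 peak in library 2 alone (5.61), and PSME3IP1 an ETS1 peak in library 1 alone (4.06). Within the gene and 10 kb on both sides, 39 members (78%) had a reproducible RUNX1 region, beside 62.3% of all genes, and 11 had none: PSMA8, PSMB1, PSMB4, PSMC1, PSMC2, PSMD1, PSMD6, PSMD7, PSMD10, PSMD14 and PSME4.

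**Figure D3:**
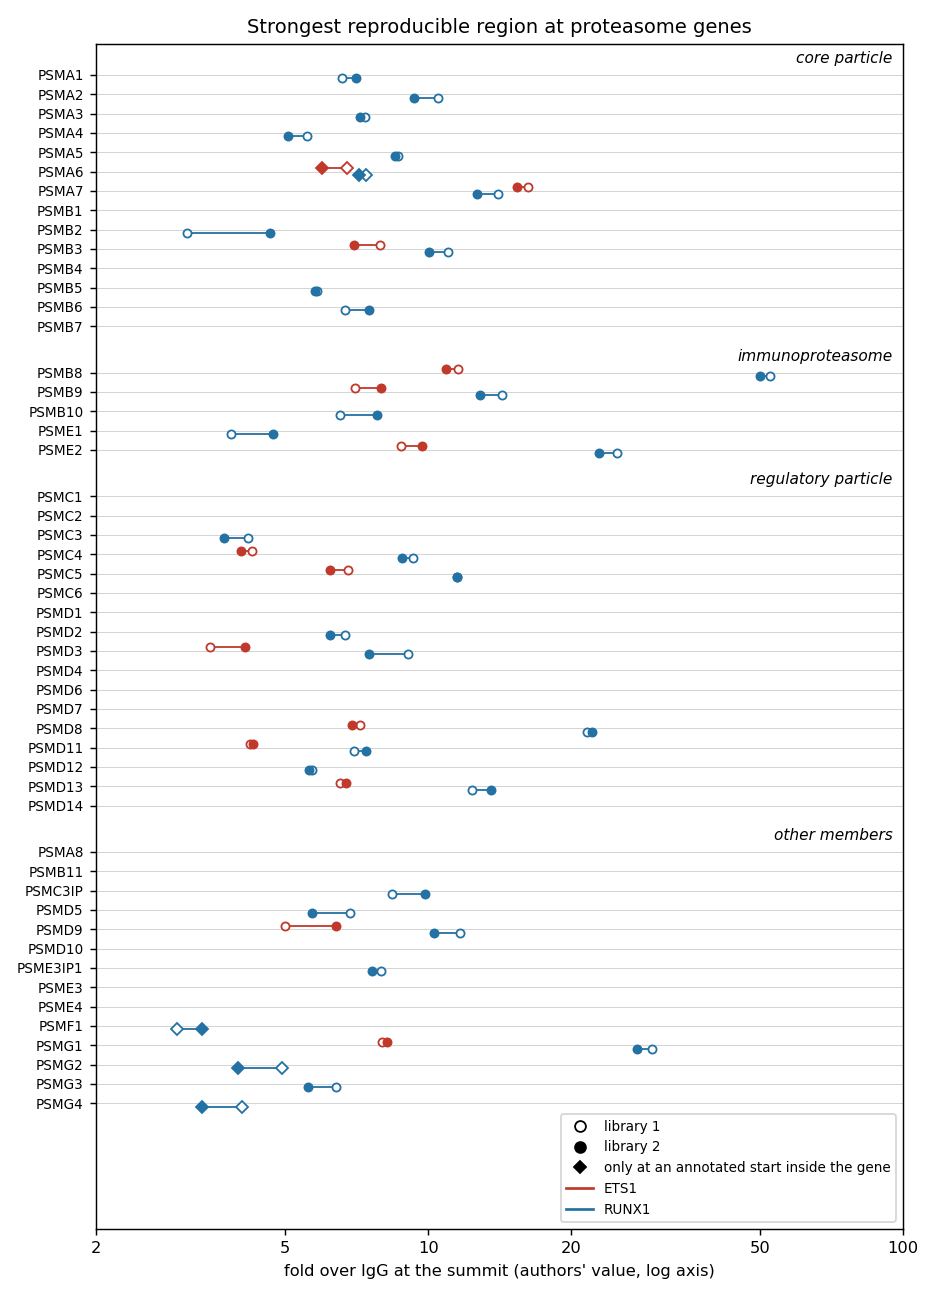
Fold over IgG (authors' value, log axis) of the strongest reproducible ETS1 (red) and RUNX1 (blue) region at each of the 50 members, with open symbols for library 1, filled symbols for library 2 and diamonds for regions at annotated starts inside the gene only. PSMB8 has the highest RUNX1 folds (52.39 and 49.99), PSMA7 the highest ETS1 folds (16.2 and 15.4), and rows without symbols had no reproducible region.

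Over the members with a region, the median mean fold was 7.05 for ETS1, beside 5.92 over all genes with an ETS1 region, and 8.04 for RUNX1, beside 8.62 over all genes with a RUNX1 region. By class the RUNX1 medians were 7.19 at core, 8.29 at regulatory and 13.6 at immunoproteasome genes. The ETS1 medians were 11.6 at the 2 core genes (PSMB3 at 7.43 and PSMA7 at 15.8), 5.36 at the 6 regulatory genes and 9.26 at the 3 immunoproteasome genes. The lowest ETS1 mean folds of the core and immunoproteasome genes, 7.43 and 7.49, were both above the highest regulatory gene, PSMD8 at 7.05. Single libraries overlapped: PSMD8 had 7.18 in library 1, beside 6.97 at PSMB3 in library 2 and 7.01 at PSMB9 in library 1. By pileup this order did not hold, with 55 and 47 at PSMB3 beside 74 and 62 at the regulatory gene PSMC5. At the 13 members with both factors the summits lay 0 to 248 bp apart (mean over libraries of the same number) with a median of 66 bp, and the median over all 3048 overlapping pairs at gene ends was also 66 bp.

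The promoter letters near some of these summits were then read. Below are promoter sequences from RefSeq (GRCh38.p14), each from 250 bases before the annotated start to 30 bases from it, 5′ to 3′ in the direction of the gene. Capitals mark matches on either strand to the ETS motif CCGGAAG, which reads CTTCCGG when reversed, to the RUNX motif TGTGGT, which reads ACCACA when reversed, and to the RUNX form TGCGGT. PSMC5, PSMD13, PSMD9 and PSMD8 had both factors, PSMD12 had RUNX1 alone, PSMD14 had neither in both libraries, and PSMB9 had both factors without any of these letters. The summits at PSMD8 and the RUNX1 summit at PSMD9 lay downstream of the printed windows.
PSMC5 (chr17:63827181-63827460, plus strand): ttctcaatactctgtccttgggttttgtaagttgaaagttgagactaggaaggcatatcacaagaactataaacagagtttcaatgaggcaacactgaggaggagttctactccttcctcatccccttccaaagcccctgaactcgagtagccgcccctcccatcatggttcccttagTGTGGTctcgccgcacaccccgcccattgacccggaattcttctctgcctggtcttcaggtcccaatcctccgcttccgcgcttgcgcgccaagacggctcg
PSMD13 (chr11:236726-237005, plus strand): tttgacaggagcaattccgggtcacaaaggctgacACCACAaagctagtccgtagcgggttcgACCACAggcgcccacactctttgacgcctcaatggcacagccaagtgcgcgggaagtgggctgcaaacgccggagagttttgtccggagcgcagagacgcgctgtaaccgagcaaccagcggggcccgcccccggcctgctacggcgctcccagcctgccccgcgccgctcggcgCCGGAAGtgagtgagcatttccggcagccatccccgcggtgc
PSMD9 (chr12:121888540-121888819, plus strand): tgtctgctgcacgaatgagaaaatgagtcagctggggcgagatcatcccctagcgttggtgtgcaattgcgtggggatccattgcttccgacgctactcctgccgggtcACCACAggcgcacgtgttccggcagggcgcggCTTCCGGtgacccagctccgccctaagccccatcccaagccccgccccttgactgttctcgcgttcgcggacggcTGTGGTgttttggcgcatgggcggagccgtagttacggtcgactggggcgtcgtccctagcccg
PSMD8 (chr19:38374321-38374600, plus strand): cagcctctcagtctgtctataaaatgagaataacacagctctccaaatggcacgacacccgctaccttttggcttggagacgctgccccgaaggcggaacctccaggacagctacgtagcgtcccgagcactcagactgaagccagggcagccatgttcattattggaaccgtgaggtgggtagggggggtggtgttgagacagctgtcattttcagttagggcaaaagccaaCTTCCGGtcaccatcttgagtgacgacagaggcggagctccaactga
PSMD12 (chr17:67366548-67366827, minus strand): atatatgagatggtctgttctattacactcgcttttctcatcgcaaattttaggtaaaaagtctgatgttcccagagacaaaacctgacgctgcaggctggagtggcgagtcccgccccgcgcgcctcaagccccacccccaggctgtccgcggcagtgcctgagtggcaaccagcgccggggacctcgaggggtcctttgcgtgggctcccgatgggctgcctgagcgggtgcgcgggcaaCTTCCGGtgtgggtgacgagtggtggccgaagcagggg
PSMD14 (chr2:161308175-161308454, plus strand): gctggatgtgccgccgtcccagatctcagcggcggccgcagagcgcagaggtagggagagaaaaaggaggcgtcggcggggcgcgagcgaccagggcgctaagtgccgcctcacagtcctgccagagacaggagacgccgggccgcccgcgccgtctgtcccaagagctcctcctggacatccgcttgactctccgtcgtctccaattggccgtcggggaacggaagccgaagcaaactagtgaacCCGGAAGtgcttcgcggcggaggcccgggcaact
PSMB9 (chr6:32853942-32854221, plus strand): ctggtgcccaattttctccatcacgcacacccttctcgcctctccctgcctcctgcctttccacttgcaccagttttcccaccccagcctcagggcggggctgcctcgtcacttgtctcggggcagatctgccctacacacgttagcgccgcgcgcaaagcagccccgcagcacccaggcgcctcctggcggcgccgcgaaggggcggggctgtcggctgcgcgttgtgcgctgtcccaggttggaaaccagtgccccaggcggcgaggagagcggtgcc

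In PSMC5 the TGTGGT match was centred 69 bp before the start, 4 bp from the summit that all 4 libraries shared. In PSMD13 a TGTGGT match on the opposite strand lay 2 bp from the RUNX1 summit and another lay 23 bp from the nearest ETS1 summit, whereas its CCGGAAG match lay 148 bp from that summit. In PSMD9 the CTTCCGG match was 41 bp from the nearest ETS1 summit, and in PSMD8 it was 96 bp away. The RUNX matches of PSMD9 lay farther from the nearest RUNX1 summit than those of PSMC5 and PSMD13, at 178 and 71 bp. PSMD12 held the longer ETS form ACCGGAAGT 21 bp from its RUNX1 summit and had no ETS1 peak.

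Motifs were counted on both strands in the RefSeq promoters, 250 bases before to 50 after the start, of the 44 members and 15812 genes that had an entry; PSMA7, PSMB1, PSMB6, PSMB7, PSMD4 and PSMG3 had none. CCGGAAG occurred in 17 of 44 members (38.6%) and in 16.5% of all genes. Within the members it did not follow the ETS1 regions: 4 of the 13 with ETS1 at an annotated start (30.8%) and 13 of the 31 without (41.9%) had it, while over all genes the shares were 28.7% with ETS1 and 13.4% without. By class it was found in 9 of 16 regulatory genes, 1 of 10 core genes (PSMA6) and 0 of 5 immunoproteasome genes. Of its 22 sites, 18 were centred within 50 bp of an annotated start. Site positions were not counted over all promoters, so this cannot be called particular to the members. The members with the motif and without ETS1 there were PSMA8, PSMC1, PSMC2, PSMC3IP, PSMC6, PSMD6, PSMD7, PSMD12, PSMD14, PSME3IP1, PSME4, PSMF1 and PSMG4.

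ACCGGAAGT, which contains CCGGAAG, was in PSMC2, PSMD8 and PSMD12 (6.82% of 44, beside 1.66% of all genes). TGTGGT was in 6 members (13.6%, beside 14.5%): PSMA3, PSMB5, PSMC5, PSMD6, PSMD9 and PSMD13. At PSMA3 and PSMB5 it lay 163 and 670 bp from the nearest RUNX1 summit. Over all genes TGTGGT was in 13.7% of those with RUNX1 at an annotated start and in 15.2% of those without. For TGCGGT these shares were 14.6% and 7.54%. TGCGGT was in PSMG1 alone (2.27%, beside 10.97%), and the composite AGGATGTGG in 0 of 44 (0.601% of all genes). The absence of a motif says only that its letters were not in this window. Motifs of other regulators of proteasome genes were counted the same way. TGACNNNGC, the core of the antioxidant response element that NFE2L1 and NFE2L2 bind, was in 15 members (34.1%, beside 17.9%), in 8 of the 13 with ETS1 at a start (61.5%, beside 20.4% of all genes with ETS1 there) and in 7 of the 31 without (22.6%, beside 17.3%). CCAAT, the box bound by NFY, was in 22 members (50%, beside 42.1%). The median GC content was 62.0% in the members' promoters and 62.3% in all promoters.

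**Figure D4:**
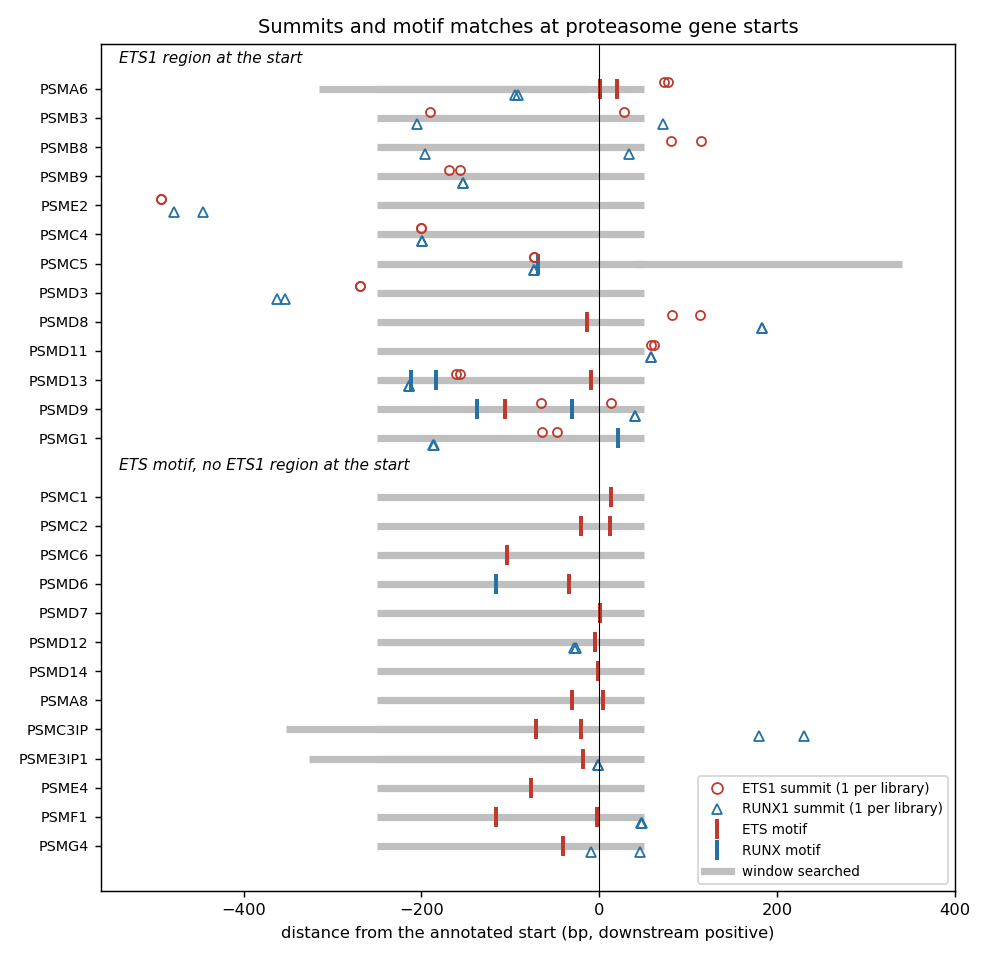
Positions of ETS1 summits (red circles), RUNX1 summits (blue triangles, 1 symbol per library) and motif matches (bars) relative to the annotated start, in bp, for members with ETS1 at a start (upper group) and members with CCGGAAG but no ETS1 there (lower group); the grey band is the window searched, and genes with several starts are drawn from 1 of them. In the upper group 4 of 13 members carry the ETS motif, and the 13 members of the lower group carry it without ETS1.

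Other genes of the pathway were taken from a list of partners and regulators. Of 10 partners of the particle, 8 had RUNX1 at an end (background 47.2%) and 2 had ETS1 (background 19%). ADRM1, a ubiquitin receptor, had both (ETS1 4.35 ± 0.10, RUNX1 7.08 ± 0.97, mean fold ± SD, n = 2), as did PAAF1, a chaperone of the regulatory particle (4.11 ± 0.72 and 9.02 ± 2.28), and SEM1, a small lid subunit, and TXNL1 had neither. All 4 genes that act on NFE2L1-type control of proteasome genes had RUNX1. NFE2L1 itself had RUNX1 folds of 44.8 and 47.9 and ETS1 folds of 4.84 and 5.73, NFE2L2 had both factors (ETS1 4.45 ± 0.50, RUNX1 10.6 ± 2.82), and DDI2 and NGLY1, which process NFE2L1, had RUNX1 alone. The RUNX1 value at NFE2L1 was above that of every proteasome gene except PSMB8.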

How the data were processed

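ETS1 and RUNX1 CUT&Tag libraries (2 each) of 6T-CEM cells were analysed from the deposited peak lists. Per the submitters' processing notes, the authors used bcl2fastq 2.17, Bowtie2 and MACS3 3.0.0a6 with hg38; per the file names, peaks were called against IgG separately for each library, with settings not given in the sources used here. Deposited lists give per peak the fold over IgG at the summit, the −log10 p and −log10 q, the summit position, and a score, which the authors' caller derives from −log10 q and which was not used. Other deposited columns are positions.

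Peaks on chromosomes 1 to 22 and X were kept, and peaks of both libraries overlapping by 1 bp or more were merged into reproducible regions. Genes came from the RefSeq table (19821 genes; 153 with scaffold positions were left out). Starts, strands and sequences came from the RefSeq promoter table (15812 genes). Where a member had several regions at its ends, the one with the highest mean fold is plotted and ranked. Pileup and IgG expectation were solved from the deposited fold and −log10 p under MACS's Poisson model (pseudocount of 1), which gave a whole number of fragments for 100% of peaks (tolerance 0.01). No set test was run. Libraries were compared by an exact permutation test. Named genes followed a rule: every member is accounted for, with per-library values for all members with ETS1, the 5 highest and 5 lowest RUNX1 folds and all immunoproteasome genes; of the other pathway genes, those with both factors or neither are named, and some are not reported here. Members and lists were chosen with earlier results of these data known. Region merging and the solving step were tested on simulated peaks. Alternatives were the window, starts, summits, −log10 q of at least 20, equal peak numbers, overlap, single libraries and the scale. Python 3.11.15, numpy 2.4.6, pandas 2.3.3 and scipy 1.17.1 were used.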

Additional observations from a re-analysis of the deposited data

How the results depend on the processing

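Counts of members stayed within 1.5 times their reported values under other windows (500 bp, 2 kb, the gene and 10 kb on both sides), annotated starts alone, summits inside the window and peaks of either library, for both factors overall and at core, regulatory and immunoproteasome genes; at the other 14 members RUNX1 went from 6 at an end to 11 within the gene and 10 kb. With a −log10 q of at least 20, ETS1 lay at 9 members (background 10.8%) and at 3 regulatory genes. With 5611 peaks per library, RUNX1 lay at 4 members and both factors at 4 (background 9.65%). RUNX1 then lay at 0 core, 1 regulatory and 2 immunoproteasome genes. The difference between libraries reversed to -9.5 members. Over all genes RUNX1 was also below ETS1 at equal numbers (13.8% against 18.5%), and the cause was not tested. With a reciprocal overlap of 50% both factors lay at 8 members (background 11.5%); the cause was not tested. The alternatives chosen after seeing the data were counting starts beside ends, keeping a region only where no other gene was nearer to its summit, and ranking by pileup. Under the second, ETS1 lay at 10 members (background 14.9%), losing PSMA7, PSMD13 and PSME2, and at 1 core gene, and RUNX1 at 26 (background 39.9%). The median rank of the members' ETS1 regions was 65.5% by fold, 58.1% by −log10 q and 48.3% by pileup, and that of RUNX1 48.2%, 52.4% and 49.9%, so the members' rank for ETS1 depended on the scale. Single libraries gave 14 to 15 members for ETS1 (background 20.4% to 21.5%), 31 to 32 for RUNX1 (background 48.2% to 49.1%) and 13 to 15 for both (background 20.1% to 21.2%). Pairing libraries by replicate number as a block gave an exact two-sided p = 0.5, the smallest that 2 pairs allow; the numbers are names only, and the pairing could not be checked. A gene without a region may be bound below the caller's threshold at these unknown depths.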

Other observations

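Of 14 listed genes of ubiquitin supply and delivery to the proteasome, 8 carried both factors at an end (background 18.7%). ETS1 lay at 9 (background 19%) and RUNX1 at 10 (background 47.2%). UFD1, a cofactor of the segregase VCP, had an ETS1 fold of 23.4 ± 0.54 and a RUNX1 fold of 18.4 ± 0.44 (mean fold ± SD, n = 2), and its ETS1 value was above those of all 13 proteasome genes with an ETS1 region. UBB, a polyubiquitin gene, had ETS1 at 11.3 ± 0.38 and RUNX1 at 18.8 ± 0.54 (n = 2). UBA1, the main ubiquitin-activating enzyme, had ETS1 at 7.602 and 8.003 and RUNX1 at 4.53 and 4.75, and the shuttle gene UBQLN4 had ETS1 at 10.1 ± 1.42 and RUNX1 at 34.5 ± 2.66. RAD23B and VCP also had both factors. RPS27A, a ribosomal fusion gene of ubiquitin, had ETS1 (2.91 and 2.70) and no reproducible RUNX1 region at an end, UBA6 and UBQLN1 had RUNX1 alone, and UBQLN2 and NPLOC4 had neither.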
